A study of Mus musculus with 39 samples.

Results

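Mosaic analysis with double markers (MADM) leaves, in rare dividing cells, both copies of one chromosome from a single parent, and the colour of the cell reports which. Here RNA was compared between cells with 2 paternal copies of chromosome 7 (paternal uniparental disomy, patUPD) and cells with 2 maternal copies (matUPD), both sorted from mouse neocortex at E13 (embryonic day 13). The comparison used 10 of the 39 libraries of the series, namely 5 patUPD and 5 matUPD libraries that pair as the red (tdTomato) and green (GFP) cells of 5 embryos, numbered 1, 2, 3, 4 and 6. Both MADM-7 cassettes (GT and TG) were present, and recombination was driven by Emx1-Cre, whose promoter is active in cortical progenitors and their descendants, on a mixed C57BL/6J and CD1 background (strain label CD1). The labels name no gene deletion or treatment for these groups, and each library is a small pool of cells from 1 embryo. Yellow cells, which hold 1 maternal and 1 paternal chromosome 7, were used from 4 libraries that the labels number as the same embryos.

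The labels give colours and not disomies. The direction was chosen by the levels of 4 paternally expressed genes of chromosome 7, Snrpn, Snhg14, Inpp5f and Kcnq1ot1: the colour with more of these transcripts was taken as patUPD, which was red in embryos 1, 2 and 3 and green in embryos 4 and 6. All 4 genes pointed the same way in each of the 5 embryos. The study's own sample list, in which the direction follows from the cross, gives the same assignment for these libraries. The patUPD minus matUPD difference ran over the 5 embryos from 1.55 to 4.00 on the log2 CPM scale for Snrpn (CPM, gene counts scaled to a common library size), from 2.89 to 7.15 for Snhg14, from 1.11 to 2.78 for Inpp5f and from 0.69 to 8.93 for Kcnq1ot1. These values describe how the members were chosen and are not findings. The weakest was Kcnq1ot1 in embryo 4, with 15.1 CPM in patUPD and 9.19 CPM in matUPD cells. Embryo 5 was left out because 36.1% (red) and 19.1% (green) of its reads aligned uniquely, under the minimum of 40%, while the lowest library kept had 50.5%.

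An imprinted gene is transcribed mainly from the copy inherited from one parent, because that copy and its partner carry different DNA methylation marks set in the egg and sperm. Mouse chromosome 7 holds several imprinted clusters: the Peg3 cluster, the Snrpn cluster (the region affected in Prader-Willi and Angelman syndromes), and, near its end, the H19 and Igf2 cluster and the Kcnq1 cluster with Cdkn1c. A cell with patUPD has only paternal copies of these genes and a cell with matUPD only maternal ones.

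Among the listed imprinted genes of chromosome 7 outside the rule, those whose groups did not overlap were Ndn, Mkrn3 and Peg3, and their start regions are shown because both marks and transcription of imprinted genes are often set there. Each window holds 250 bases before and 50 after the start given by RefSeq (GRCm38.p6), 5′ to 3′ on the strand of the gene, with CpG dinucleotides (the bases CG, the sites of DNA methylation) in capitals. Ndn is from chr7:62348027-62348326 (plus strand), Mkrn3 from chr7:62420104-62420403 (minus strand) and Peg3 from chr7:6730370-6730669 (minus strand).
Ndn: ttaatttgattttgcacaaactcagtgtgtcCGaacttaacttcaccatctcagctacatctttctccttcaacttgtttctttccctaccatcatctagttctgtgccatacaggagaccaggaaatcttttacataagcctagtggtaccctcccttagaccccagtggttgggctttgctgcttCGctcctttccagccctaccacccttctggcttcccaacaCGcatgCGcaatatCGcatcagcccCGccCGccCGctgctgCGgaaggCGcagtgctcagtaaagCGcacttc
Mkrn3: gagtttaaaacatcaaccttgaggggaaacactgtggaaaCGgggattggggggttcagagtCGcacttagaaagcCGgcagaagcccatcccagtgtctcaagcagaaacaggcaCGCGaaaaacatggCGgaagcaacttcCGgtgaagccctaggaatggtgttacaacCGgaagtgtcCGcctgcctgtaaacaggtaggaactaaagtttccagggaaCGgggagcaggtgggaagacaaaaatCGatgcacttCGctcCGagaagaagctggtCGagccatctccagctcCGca
Peg3: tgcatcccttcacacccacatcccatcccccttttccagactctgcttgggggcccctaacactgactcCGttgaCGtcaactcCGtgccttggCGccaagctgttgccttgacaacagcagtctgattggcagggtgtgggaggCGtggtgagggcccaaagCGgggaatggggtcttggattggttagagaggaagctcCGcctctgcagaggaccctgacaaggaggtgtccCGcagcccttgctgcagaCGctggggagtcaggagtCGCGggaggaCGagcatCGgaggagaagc

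The windows hold 11 CpG in Ndn, 15 in Mkrn3 and 13 in Peg3, against a median of 7 over 32851 promoter windows of the same length. Of those windows, 41.4%, 34.6% and 37.9% hold at least as many. The Peg3 window shares 263 bases with that of Usp29, which is transcribed in the other direction. A search on both strands for the core motif of NRF1 (GCATGCGC, in 2.71% of all windows) gave 1 match in Ndn and none in the other two. The core motif of YY1 (GCCATNTT, in 6.05% of all windows) gave 1 match in Mkrn3 and none in the others. Methylation was not measured in these libraries.

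Gene counts per library ran from 1217306 to 5205788, and 9610 to 12883 genes were detected. At these depths 3 counts, the floor used for a gene not seen, equal 0.546 to 2.4 normalised CPM. Mitochondrial genes took 4.11% to 7.55% of gene counts. More genes were detected in patUPD than in matUPD cells in 1 of 5 embryos, and the patUPD library of embryo 4 had the fewest. The yellow library of embryo 2 stands apart, with 40.9% of its unique reads outside genes. It had both Xist (1164 counts) and Y-linked reads (1469 counts), while the red and green libraries of embryo 2 had 0 Xist counts. Whether that yellow library holds cells of embryo 2 alone was not tested, and the fit blocked it with embryo 2. Some yellow values, but not all, are therefore also given without it. All 8 genes of neocortical identity passed the filter on low counts. Of these, 7 had a lower and 1 a higher fitted level in patUPD, with 0 at an unadjusted p under 0.05 by edgeR. They summed to 1283 to 2337 CPM in patUPD and 2097 to 2659 CPM in matUPD cells. Among them Tbr1, a transcription factor of deep-layer neurons, was at 108 to 454 CPM in patUPD and 193 to 438 CPM in matUPD cells. Sorting yields RNA from pools, so fewer cells of a type and less RNA per cell cannot be told apart.

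The first question was which genes differ between patUPD and matUPD cells. Of 11794 genes tested with edgeR's quasi-likelihood test, with the embryo as a block, 0 passed a Benjamini-Hochberg adjusted p of 0.05 (0% of the genes tested). At an unadjusted p under 0.05 there were 108 genes higher (0.916%) and 158 lower (1.34%) in patUPD. With limma-voom 0 genes passed, and the DESeq2 Wald test called 211, of which 92 were higher and 119 lower. Of those 211 genes, 34 had the same sign in all 5 embryos. Over all genes tested, 2.13% were higher and 2.66% lower in patUPD in all 5. Of the 5 smallest p-values, 4 belonged to imprinted genes of chromosome 7: Ndn (rank 1) and Mkrn3 (rank 4), and Snrpn (rank 2) and Snhg14 (rank 5), which belong to the rule. Rank 3 was Fam19a1 on chromosome 6, named after its values were seen, which was higher in matUPD cells in 4 embryos and in patUPD cells in 0. By edgeR no gene was called, those of the rule included, and the genes below are described by their values in each embryo. With 5 pairs, a two-sided exact permutation test that flips the signs of a single gene's differences cannot give a p below 0.0625, the value reached by each gene that goes 1 way in all 5 embryos.

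**Figure D1:**
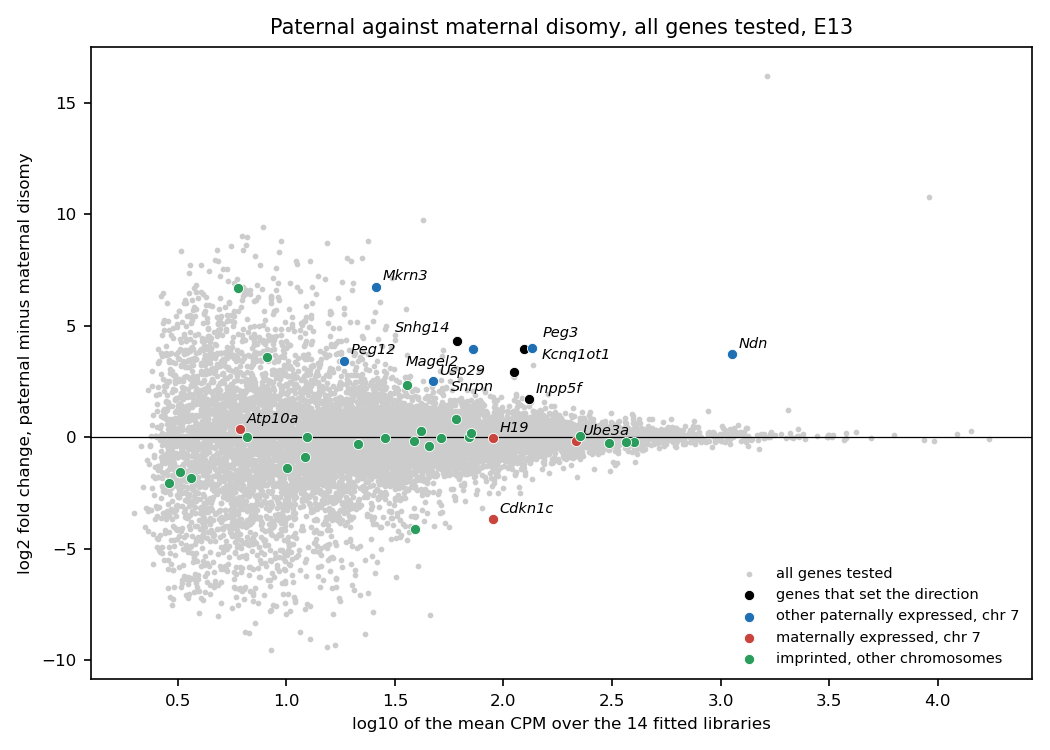
Each point is 1 of the genes tested at E13, with the log10 of its mean CPM over the 14 fitted libraries on the x axis and the log2 fold change of patUPD minus matUPD cells on the y axis. Black points set the direction, blue points are other paternally expressed and red points maternally expressed imprinted genes of chromosome 7, and green points are imprinted genes of other chromosomes. Ndn lies at 3.72 with a mean of 1128 CPM. The globin gene Hba-x, with a mean of 1630 CPM, lies at 16.2, and the points spread widely at low CPM.

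Of the 13 other paternally expressed genes listed for chromosome 7, 6 passed the filter of a mean count of 10, and all 6 had a higher fitted level in patUPD cells. Ndn, Mkrn3 and Peg3 were higher in patUPD in 5 of 5 embryos, as were 2.13% of all genes tested, with no overlap between the groups, as were 0.280% of all genes. Their median log2 fold change was 3.83, against -0.06 over all genes tested. None passed the adjusted threshold of edgeR, and 3 of the 6 had an unadjusted p under 0.05. Among the 211 of 11794 genes that the DESeq2 Wald test called were Ndn (adjusted p = 8.38e-11) and Mkrn3 (adjusted p = 2.09e-07) and none of the other 4. Ndn, Mkrn3, Magel2 and Peg12 lie in the same cluster as Snrpn and Snhg14, so their direction is not independent of the genes that set it, whereas Peg3 and Usp29 lie in a cluster that the rule did not use.

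Ndn (chromosome 7, start 62346569, end 62350262, GRCm38) encodes necdin, a MAGE family protein that restrains proliferation and promotes survival of neurons. Its level in patUPD cells was 2257, 1240, 1198, 911 and 1438 CPM in embryos 1, 2, 3, 4 and 6. In matUPD cells it was 186, 120, 72.9, 6.82 and 254 CPM. The lowest patUPD library was thus above the highest matUPD library. The matUPD mean was 128 ± 96.3 CPM (SD, n = 5) and the patUPD mean 1409 ± 510 CPM (SD, n = 5), so that matUPD cells held 9.08% of the patUPD level. The log2 fold change was 3.72 (SE 0.59, edgeR adjusted p = 0.338). Without embryo 4, the embryo with the lowest matUPD value, Ndn passed the threshold at 3.38 (edgeR adjusted p = 0.0108).

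Mkrn3 (start 62417593, end 62420139), a makorin RING finger protein whose loss is linked to early puberty, was at 16.4, 51.7, 16.5, 26.5 and 79.6 CPM in patUPD cells of embryos 1, 2, 3, 4 and 6. In matUPD cells it was at 0.486 and 2.18 CPM in embryos 1 and 2 and at 0 counts in the other three. The groups did not overlap, with a log2 fold change of 6.75 (SE 1.48, unadjusted p = 5.72e-04, edgeR adjusted p = 1). The difference did not pass the threshold in any embryo-left-out fit, in which it ran from 5.80 to 7.88.

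Peg3 (start 6703892, end 6730431) encodes a zinc finger protein. It was at 169, 101, 253, 327 and 71.1 CPM in patUPD cells of embryos 1, 2, 3, 4 and 6, and at 49.1, 15.3, 0, 0 and 32.0 CPM in matUPD cells. Every patUPD library was above every matUPD library, but the size varied: the within-embryo difference ran from 1.14 log2 CPM in embryo 6 to 9.19 in embryo 4. The fitted log2 fold change was 4.01 (SE 1.61, unadjusted p = 0.0273, edgeR adjusted p = 1).

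The other 3 paternally expressed genes were less regular. Usp29, a ubiquitin protease gene next to Peg3, was at 58.6, 59.6, 63.5, 0 and 58.6 CPM in patUPD and at 18.5, 0, 2.4, 0 and 50.3 CPM in matUPD cells (embryos 1, 2, 3, 4 and 6). It was higher in patUPD in 4 embryos and at 0 counts in both libraries of embryo 4. Magel2, a MAGE family ubiquitin ligase regulator, was at 142, 31.6, 81.2, 0 and 6.49 CPM in patUPD and at 0, 0, 7.21, 0 and 22.5 CPM in matUPD cells. Its direction was reversed in embryo 6. Peg12, an intronless gene of the Snrpn cluster, was at 5.55, 4.20, 25.4, 105 and 34.7 CPM in patUPD and at 27.2, 1.09, 0, 0 and 16.5 CPM in matUPD cells, reversed in embryo 1. The groups overlapped for all 3, with edgeR log2 fold changes of 2.52 (SE 1.79), 3.94 (SE 2.36) and 3.44 (SE 2.05) and unadjusted p of 0.182, 0.119 and 0.118.

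Zfp264, Igf2, Igf2os, Ins2 and Snurf were listed at 0 in all 14 libraries, and Peg3os and Ipw have no row. Reads that overlap several genes are not assigned to any, so a value of 0 for a gene that shares exons with another, such as Snurf within Snrpn, is not a measure of its transcript.

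**Figure D2:**
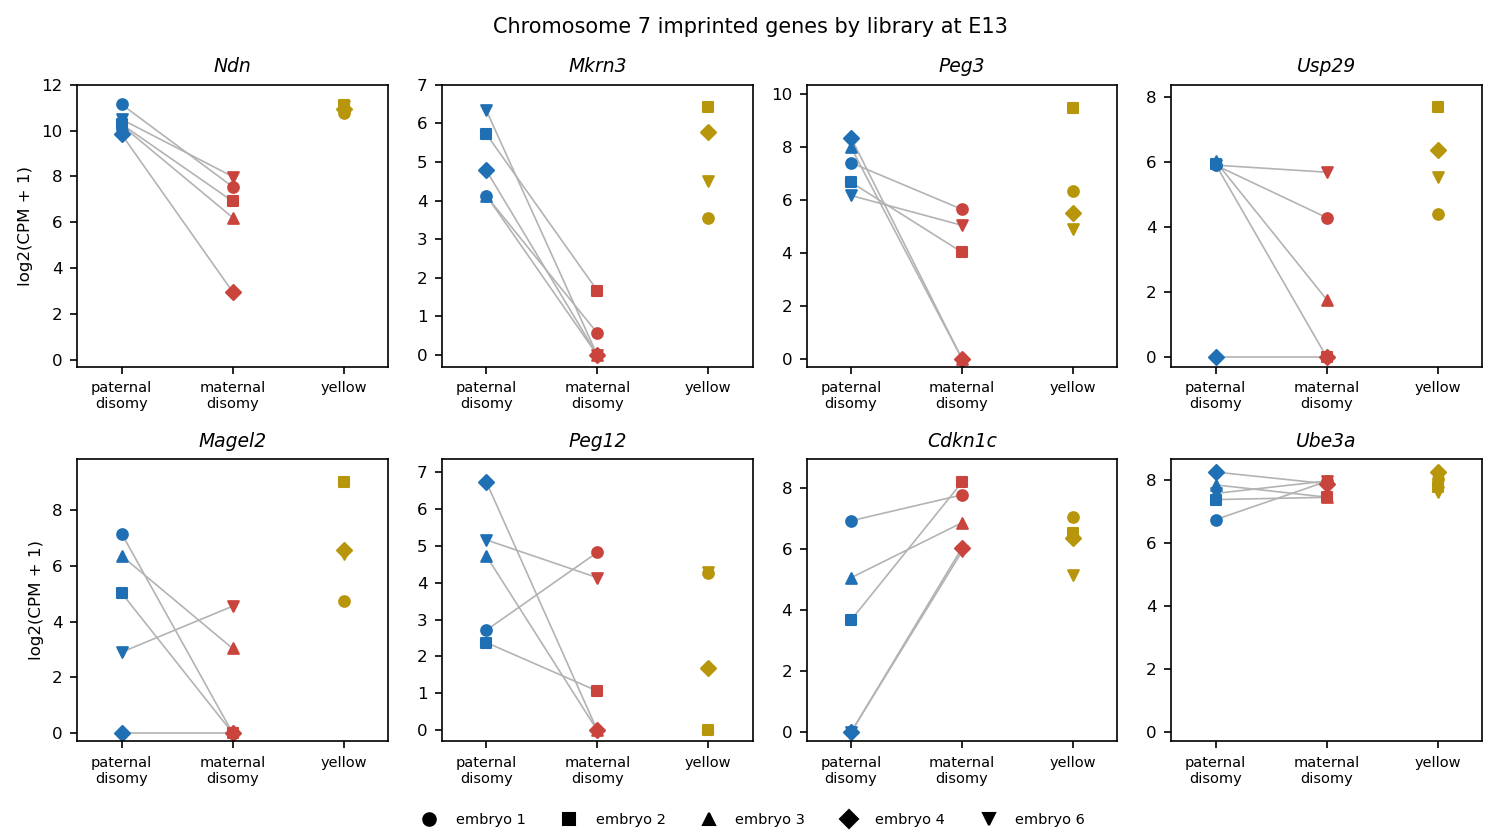
Each panel shows 1 imprinted gene of chromosome 7, with log2(CPM + 1) on the y axis and a point for each patUPD (blue), matUPD (red) and yellow library at E13. Grey lines join the libraries of 1 embryo, and the marker shape gives the embryo. Ndn, Mkrn3 and Peg3 were higher in patUPD in all 5 embryos, Cdkn1c was lower in all 5, and Ube3a did not separate the groups.

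Of the 10 maternally expressed genes listed for chromosome 7, 4 passed the filter: Cdkn1c, Ube3a, H19 and Atp10a. One of them, Cdkn1c, was higher in matUPD in 5 of 5 embryos, as were 2.66% of all genes tested. The median log2 fold change of the 4 was -0.11, near the -0.06 of all genes. Kcnq1, Phlda2, Slc22a18, Zim2 and Zim3 were listed at 0 in all 10 libraries, and Zim1 did not pass the filter.

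Cdkn1c (start 143458339, end 143461050) encodes p57 KIP2, an inhibitor of cyclin-dependent kinases that promotes exit from the cell cycle. In matUPD cells it was at 218, 291, 115, 64.6 and 59.6 CPM in embryos 1, 2, 3, 4 and 6. In patUPD cells it was at 121, 11.7 and 32.4 CPM in embryos 1, 2 and 3 and at 0 counts in embryos 4 and 6, where 3 counts would be 1.26 and 0.748 CPM. Of the patUPD libraries, that of embryo 1 lay within the matUPD range and the others below it. The mean was 150 ± 101 CPM in matUPD and 32.9 ± 50.7 CPM in patUPD cells (SD, n = 5 each), a ratio of 4.55. The log2 fold change was -3.67 (SE 1.32, unadjusted p = 0.0158, edgeR adjusted p = 1), and the spread between embryos was large: the within-embryo difference was -0.85 in embryo 1 and -6.86 in embryo 4. The DESeq2 Wald test called Cdkn1c (log2 fold change -3.80, adjusted p = 0.00997). Cdkn1c lies in the same cluster as Kcnq1ot1, 1 of the 4 genes of the rule.

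Ube3a, the E3 ubiquitin ligase lost in Angelman syndrome, which is expressed from the maternal copy in mature neurons but from both copies in many other cells, was at 105, 164, 227, 301 and 188 CPM in patUPD and at 245, 172, 173, 233 and 247 CPM in matUPD cells. It was higher in matUPD in 3 of 5 embryos, with a log2 fold change of -0.16 (SE 0.34), and the groups overlapped. H19, a noncoding RNA, varied more between embryos than between disomies: it was at 297 and 275 CPM in patUPD and matUPD cells of embryo 1 and under 6 CPM in both libraries of embryos 4 and 6. Its log2 fold change was -0.05 (SE 1.00). Atp10a, a phospholipid transporter gene, was at 0 to 23.8 CPM in patUPD and 0 to 43.5 CPM in matUPD cells.

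A further 13 chromosome 7 genes are imprinted mainly in the placenta, of which 10 passed the filter. Their median log2 fold change was 0.13, with 5 positive and 5 negative, and 0 had an unadjusted p under 0.05. Tnfrsf22, a decoy receptor gene, was higher in matUPD in 5 of 5 embryos, with 80.3, 12.6, 37.2, 80.3 and 7.98 CPM in patUPD and 116, 75.5, 67.3, 266 and 39.3 CPM in matUPD cells (log2 fold change -1.57, SE 1.07, unadjusted p = 0.168). Cd81, a tetraspanin, was at 215 to 443 CPM in patUPD and 218 to 410 CPM in matUPD cells. Tssc4, Nap1l4, Osbpl5 and Dhcr7 had log2 fold changes from 0.50 to 1.02, each smaller than 1.5 times its SE, and Trpm5, Th, Ano1 and Tnfrsf23 were at 0 in at least 5 of the 10 libraries. Tspan32 and Ampd3 did not pass the filter, and Ascl2 was listed at 0.

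The colour that carries patUPD differed between embryos, so the values are given for each arrangement. The arrangements also differ in cross and in sex. The red and green libraries of embryos 1, 2 and 3 had Y-linked reads and at most 2 Xist counts each. Those of embryos 4 and 6 had Xist and at most 1 Y-linked count, so colour, cross and sex cannot be told apart. Where patUPD was red (embryos 1, 2 and 3), the mean within-embryo difference was 3.66 log2 CPM for Ndn, 4.4 for Mkrn3, 4.42 for Peg3 and -2.41 for Cdkn1c. Where patUPD was green (embryos 4 and 6), it was 4.72, 6.38, 5.17 and -6.80 for Ndn, Mkrn3, Peg3 and Cdkn1c. The direction of these 4 genes was therefore the same in both arrangements. For Magel2 it was not, at 5.74 with patUPD red and -0.86 with patUPD green, and Usp29 was at 4.27 and 0.11.

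Each disomy was also set against yellow cells, which can lie between the disomies, nearer to 1 of them or outside both. Against yellow, the S phase list had a median log2 fold change of 1.195 in patUPD and 1.207 in matUPD cells. For the projection neuron list it was -0.655 and -0.361. The part of cell make-up in the values against yellow was not tested. Against yellow, 0 genes passed the adjusted threshold of edgeR for patUPD (0%; 284 higher, 2.41%, and 419 lower, 3.55%, at an unadjusted p under 0.05) and 0 for matUPD (0%; 235 higher, 1.99%, and 349 lower, 2.96%). Both contrasts use the same 4 yellow libraries. Of the 11794 genes tested, limma-voom called 15 and 29 and DESeq2 459 and 362. Without the yellow library of embryo 2, edgeR called 2 genes for patUPD and 6 for matUPD.

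For Ndn the yellow libraries of embryos 1, 2, 4 and 6 were at 1749, 2218, 1982 and 2158 CPM. They lay above every matUPD library and above 4 of the 5 patUPD libraries. The patUPD mean was 0.695 of the yellow mean (log2 fold change -0.60, SE 0.58), and the matUPD mean 0.0631 of it (-4.32, SE 0.64, unadjusted p = 1.4e-05, edgeR adjusted p = 0.147). Mkrn3 was at 10.8, 84.3, 53.7 and 21.8 CPM in yellow cells, 0.34 (SE 1.2) below patUPD and 6.41 (SE 1.49) above matUPD on the log2 scale. Peg3 was at 79.8, 720, 44.0 and 29.0 CPM in yellow cells, and the mean of 218 CPM depended on embryo 2, without which it was 50.9 CPM. The patUPD mean of Peg3 was 184 CPM.

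Cdkn1c was at 130, 90.5, 81.9 and 34.3 CPM in yellow cells, between the group means of patUPD and matUPD. The matUPD mean was 1.78 times the yellow mean (log2 fold change 0.44, SE 1.15), and the patUPD mean 0.391 of it (-3.23, SE 1.46, unadjusted p = 0.0457, edgeR adjusted p = 0.834). Without the yellow library of embryo 2, the yellow mean of Cdkn1c was 82.1 CPM in place of 84.2 CPM. Among the genes that set the direction, the log2 fold change of patUPD against yellow was -0.19 for Snrpn, -0.20 for Snhg14, 0.13 for Kcnq1ot1 and 0.82 (SE 0.59) for Inpp5f.

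**Figure D3:**
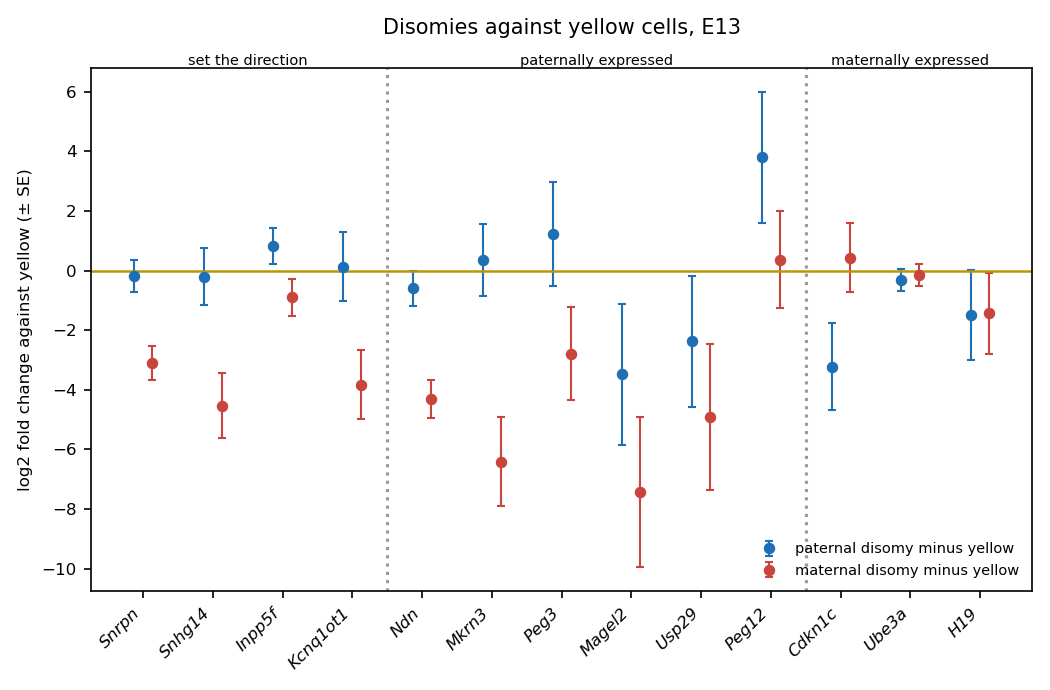
The y axis gives the log2 fold change of patUPD (blue) and matUPD (red) cells against yellow cells at E13, with bars of 1 SE, for the imprinted genes named on the x axis. The yellow line at 0 is the level of yellow cells. For Ndn, Mkrn3 and the genes that set the direction the matUPD points lie below yellow, and for Cdkn1c the patUPD point lies below it, at -3.23.

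No gene outside the imprinted lists passed the threshold, and those named next are the 5 higher and the 5 lower genes with the smallest unadjusted p among genes that went 1 way in all 5 embryos. Each was called by the DESeq2 Wald test, and none by edgeR, with an edgeR adjusted p of 1. Paf1, the founding subunit of the PAF1 complex of transcription elongation, lies on chromosome 7 outside the imprinted clusters. It was at 1233, 641, 995, 1959 and 1277 CPM in patUPD and at 786, 637, 488, 660 and 218 CPM in matUPD cells of embryos 1, 2, 3, 4 and 6 (log2 fold change 1.18, SE 0.34, unadjusted p = 0.00393). In embryo 2 the libraries were nearly equal, and the groups overlapped.

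Pcnx3, a pecanex family membrane protein gene, had the smallest p of the 5 higher genes, at 181, 71.6, 50.3, 131 and 43.9 CPM in patUPD and 21.4, 18.0, 15.2, 14.2 and 1.10 CPM in matUPD cells (log2 fold change 2.99, SE 0.81, unadjusted p = 0.00280). The groups did not overlap. Sh3glb1 (endophilin B1), which acts in autophagy and apoptosis, was at 145 to 286 CPM in patUPD and 43.7 to 148 CPM in matUPD cells. Mapk10, the neuronal JNK3 kinase, was at 16.8 to 101 CPM in patUPD and 0 to 16 CPM in matUPD cells. Tmem120b was at 5.87 to 73.6 CPM in patUPD and 0 to 2.43 CPM in matUPD cells. Yellow cells were at 17.4 to 90.0 CPM for Pcnx3 and 72.7 to 237 CPM for Sh3glb1. For Mapk10 they were at 75.4 to 259 CPM and for Tmem120b at 0 to 23.6 CPM. The yellow library of embryo 2 had the highest value for Pcnx3 and Mapk10 and the lowest for Sh3glb1 and Tmem120b. Without it the yellow means of Pcnx3, Sh3glb1, Mapk10 and Tmem120b were 25.5, 203, 90.1 and 15.7 CPM.

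The 5 lower genes were all near or at 0 in several patUPD libraries. Phf7, a PHD finger protein known from the male germline, was at 53.5, 20.0, 70.5, 9.49 and 57.6 CPM in matUPD cells, against 1.11 and 1.63 CPM in patUPD cells of embryos 1 and 3 and 0 in the other three. Yellow cells were at 0, 0, 0 and 13.2 CPM for Phf7, nearer to patUPD cells. For the other 4 the yellow mean was above the patUPD mean, at 38.1 CPM for Fbxo16, 28.6 CPM for Sepsecs, 31.1 CPM for Inf2 and 48.2 CPM for Fancm, against matUPD means of 34.9, 11.8, 28.7 and 29.7 CPM and patUPD means of 0.951, 0.112, 2.5 and 1.30 CPM. Without the yellow library of embryo 2 these yellow means were 48.9, 10.1, 17.0 and 12.3 CPM, still above patUPD. Fancm, a DNA helicase of the Fanconi anaemia pathway, was at 4.81 to 77.7 CPM in matUPD and 0 to 2.56 CPM in patUPD cells. Fbxo16, an F-box protein, was at 14.4 to 77.4 CPM in matUPD cells and seen in patUPD cells of embryo 2 alone, at 4.75 CPM. Inf2, a formin, was at 6.32 to 67.2 CPM in matUPD and 0 to 11.6 CPM in patUPD cells. Sepsecs, an enzyme of selenocysteine synthesis, had 2 counts in all patUPD libraries together and 1.46 to 32.7 CPM in matUPD cells.

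By chromosome, 31 of 868 genes on chromosome 7 had an unadjusted p under 0.05 (3.57%), of which 21 were higher and 10 lower in patUPD. Over the 10926 genes of other chromosomes the share was 2.15%. Leaving out the listed imprinted genes, 23 of 844 chromosome 7 genes remained (2.73%), 14 higher and 9 lower, and their median log2 fold change was -0.01. Of the 20 smallest p-values, 6 belonged to chromosome 7, and 3 of these 6 were genes of the rule. Distance was taken from the 14 tested genes that are in the rule or are paternally or maternally expressed outside the placental list. Within 1 Mb of them, 60 genes outside all imprinted lists were tested, of which 2 were higher and 0 lower at an unadjusted p under 0.05, and 1 was higher and 1 lower in patUPD in all 5 embryos. At 1 to 5 Mb, 3 of 182 genes were higher and 2 lower at an unadjusted p under 0.05, and 8 were higher and 0 lower in all 5 embryos. At over 5 Mb, 9 of 602 genes were higher and 7 lower, and 11 were higher and 18 lower in all 5 embryos. Over all genes tested 2.13% were higher and 2.66% lower in all 5 embryos.

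Of 31 imprinted genes of other chromosomes, 24 passed the filter and 0 had an unadjusted p under 0.05 by edgeR. DESeq2 called 1, Mirg, among its 211 calls over the 11794 genes tested. The median log2 fold change of the 24 genes was -0.11. Their median within-embryo difference ran from -0.13 to 0.06 log2 CPM over the 5 embryos. Grb10, a maternally expressed growth inhibitor on chromosome 11, was at 248 to 953 CPM in patUPD and at 379 to 542 CPM in matUPD cells (log2 fold change -0.22, SE 0.50). Plagl1, H13 and Nnat had log2 fold changes of -0.22, -0.25 and 0.06. The spread between embryos was larger than the difference for each.

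The study compared cell cycle genes between the disomies, and gene lists of the cell cycle and of cell death are described here. Of the S phase genes, 42 were tested and 0 had an unadjusted p under 0.05, with a median log2 fold change of 0.05. Of 50 tested genes of G2 and mitosis, 1 was lower and 0 higher (unadjusted), with a median of 0.05. Over all genes tested 1.34% were lower and 0.916% higher at an unadjusted p under 0.05. The lower gene, Ttk, was also among the 211 genes called by DESeq2. Cdk1, the kinase that drives mitosis, was at 173, 275, 161, 455 and 417 CPM in patUPD and 254, 182, 305, 309 and 194 CPM in matUPD cells, with a log2 fold change of 0.19 (SE 0.37). Pcna, the sliding clamp of DNA replication, was at 111 to 185 CPM in patUPD and 116 to 198 CPM in matUPD cells (0.02, SE 0.39). Both genes changed sign between embryos. Cbx5, which encodes the heterochromatin protein HP1 alpha, was lower in patUPD in 5 of 5 embryos, at 347 to 520 CPM against 479 to 976 CPM (log2 fold change -0.47, SE 0.28).

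Among the other CDK inhibitors, 5 were tested and all 5 had a negative log2 fold change, with a median of -1.31. The smallest unadjusted p by edgeR was 0.215. By embryo the direction was not uniform: the list median was 0.129, -0.953, 0.308, 0 and -2.075 log2 CPM in embryos 1, 2, 3, 4 and 6. Cdkn2c was higher in patUPD in 3 of 5 embryos. Cdkn3, a phosphatase that acts on CDK2, was higher in matUPD without overlap, as were 0.322% of all genes. It was at 50, 42.5, 43.5, 6.72 and 24.4 CPM in patUPD and at 57.4, 82.8, 115, 72.3 and 105 CPM in matUPD cells (log2 fold change -1.40, SE 1.07). Of the G1 cyclins, kinases and Rb family, 15 were tested. Rb1, the retinoblastoma protein gene, was lower in patUPD in 5 of 5 embryos, at 22.5, 67.4, 34.2, 28.2 and 114 CPM against 44.3, 117, 155, 70.3 and 248 CPM in matUPD cells (log2 fold change -1.27, SE 0.47, unadjusted p = 0.0186). Cdk4 and Ccnd2, which drive entry into the cell cycle, had log2 fold changes of -0.14 (SE 0.20) and -0.02 (SE 0.27).

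In the apoptosis and p53 list 24 genes were tested, with 1 higher and 0 lower at an unadjusted p under 0.05 by edgeR. Over all genes tested 0.916% were higher and 1.34% lower. The median log2 fold change of the list was -0.22. Mdm4, an inhibitor of p53, was at 177 to 294 CPM in patUPD and 81.9 to 198 CPM in matUPD cells and higher in patUPD in 4 of 5 embryos (0.68, SE 0.58). Mcl1, Xiap and Diablo had log2 fold changes of -0.21, -0.50 and -0.79 with SE of 0.38, 1.01 and 0.42. The list median by embryo ran from -0.61 to 0.40 log2 CPM.

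By edgeR and DESeq2 no marker of the cell types in the sort was called, and members of each list went both ways. Radial glia genes had a median log2 fold change of -0.12 over 16 genes, intermediate progenitors -0.17 over 11 and projection neurons -0.09 over 20. Among the radial glia genes Ptprz1, a receptor phosphatase, was lower in patUPD in 5 of 5 embryos (log2 fold change -2.03, unadjusted p = 0.0127), and Nes, the filament protein nestin, was higher in 4 (1.52, unadjusted p = 0.0429); both were named after their values were seen. Fabp7 and Vim, the most abundant of the list, had log2 fold changes of -0.22 (SE 0.29) and -0.03 (SE 0.25). Eomes, the transcription factor that marks intermediate progenitors, was lower in patUPD in 5 of 5 embryos, at 291, 357, 152, 270 and 174 CPM against 393, 396, 428, 326 and 516 CPM in matUPD cells (log2 fold change -0.75, SE 0.35, unadjusted p = 0.0506). Tubb3, a neuronal tubulin, was higher in patUPD in 5 of 5 embryos by a log2 fold change of 0.19 (SE 0.18). The summed level of the projection neuron list was 5353 to 9443 CPM in patUPD and 5864 to 8380 CPM in matUPD cells, below the 11760 to 14320 CPM of yellow cells.

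Lists of other cell types were uneven between libraries. In the microglia and blood list DESeq2 called 2 globin genes higher in patUPD, Hba-x and Hbb-y, among 92 called higher over all genes tested. Hba-x was at 0 counts in all 5 matUPD libraries. Of the microglia and blood list, P2ry12, C1qb, Tyrobp, Cx3cr1 and Aif1 were at 0 in all 10 libraries. The embryonic globin Hbb-y was at 47948 and 10216 CPM in patUPD cells of embryos 1 and 2 and at 38.4 CPM or less in the other 8 libraries, and Hba-x was at 11879 and 275 CPM in those same libraries. Hbb-bs, a globin of later red blood cells, was at 2751 and 8670 CPM in matUPD cells of embryos 1 and 4, and at 1128 and 1486 CPM in patUPD cells of embryos 1 and 2. Hba-a1 was at 2759 and 7356 CPM in matUPD cells of embryos 1 and 4, and at 5210 and 1900 CPM in patUPD cells of embryos 1 and 2. Globin RNA was thus high in libraries of both disomies, from embryos 1, 2 and 4. In embryo 4 its patUPD partner had 44.1 CPM of Hbb-bs and 2.52 CPM of Hba-a1. Yellow cells of embryos 1 and 4 also had 29182 and 40934 CPM of Hbb-y. The part of blood RNA in other differences of embryos 1, 2 and 4 was not tested. Endothelial, mural and meningeal genes summed to 31.1 to 902 CPM in patUPD and 55.2 to 508 CPM in matUPD cells, with 0 of 9 tested genes at an unadjusted p under 0.05. The interneuron, Cajal-Retzius, and oligodendrocyte and choroid plexus lists had 7, 6 and 3 tested genes and median log2 fold changes of -1.09, -1.23 and 0.17. In the Cajal-Retzius list 1 gene was lower at an unadjusted p under 0.05, as were 1.34% of all genes tested.

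In the remaining lists edgeR called no gene, and DESeq2 called Ndn in the MAGE family. Their median log2 fold changes were -0.27 over 22 genes of insulin-like growth factor signalling, -0.08 over 19 of the Notch pathway, -0.15 over 12 of DNA methylation and imprint maintenance, -0.32 over 8 of neocortical identity and 0.32 over 10 of the dissociation and stress response. Hes1, a Notch target, was at 104 to 207 CPM in patUPD and 57.1 to 242 CPM in matUPD cells. Dnmt1, the maintenance methyltransferase, was at 323 to 1174 CPM in patUPD and 413 to 783 CPM in matUPD cells (log2 fold change -0.23, SE 0.30). Trim28, a corepressor needed to keep imprints, had a log2 fold change of 0.07 (SE 0.27). In the MAGE family the median was 0.74 over 7 genes, of which Ndn and Magel2 are imprinted, while the X-linked Maged1 and Maged2 had log2 fold changes of -0.16 and 0.11. Of the 10 tested genes of the dissociation and stress response, 9 had a positive log2 fold change and 1 a negative one. Fos, an immediate early gene raised by dissociation, was higher in patUPD in 4 of 5 embryos (1.41, SE 0.86).

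**Figure D4:**
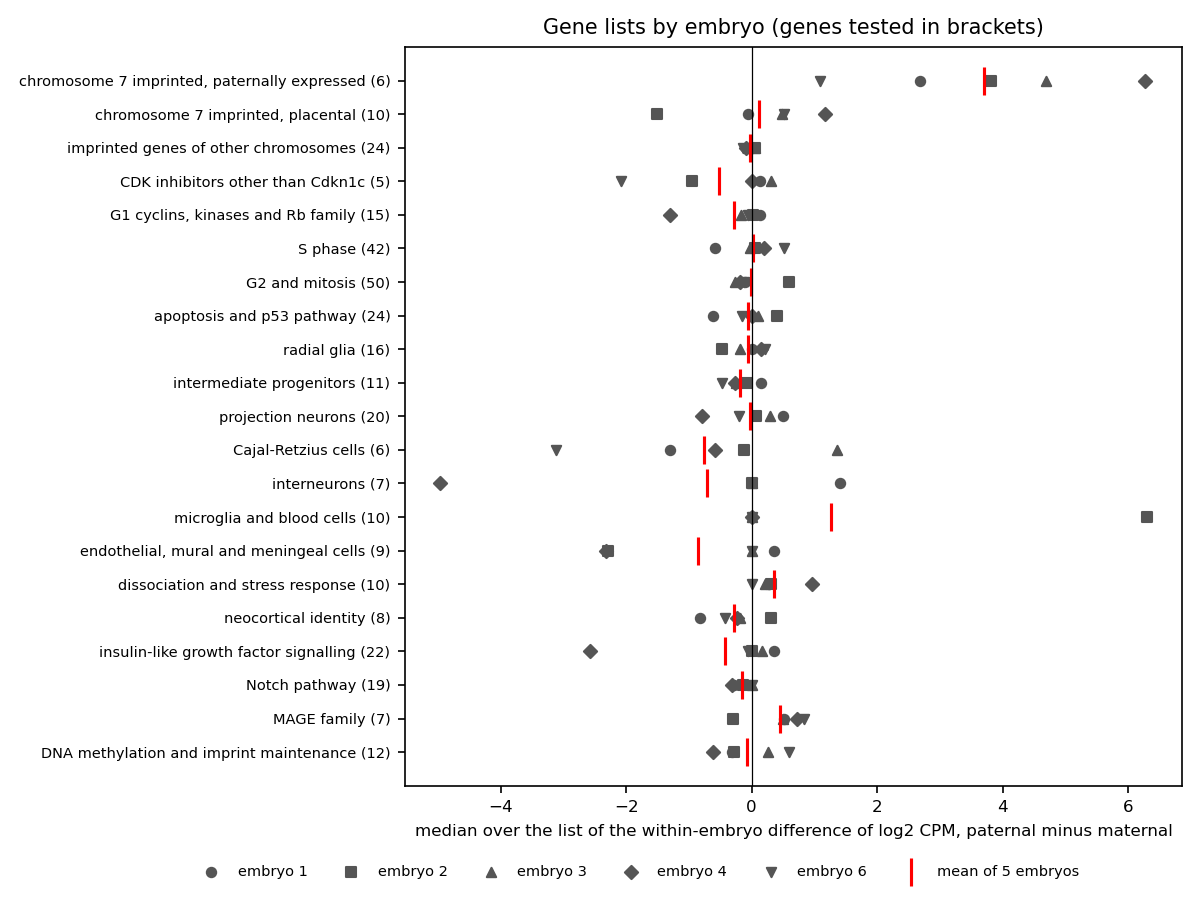
For each gene list with at least 5 tested genes (number in brackets), the x axis gives the median over the list of the within-embryo difference of log2 CPM, patUPD minus matUPD, with 1 marker per embryo and a red bar at the mean of the 5 embryos. The paternally expressed list of chromosome 7 lies above 0 in every embryo, from 1.09 to 6.27. The dissociation and stress response list lies at or above 0 in every embryo, from 0 to 0.966. The microglia and blood list lies at 0 except in embryo 2, at 6.292. The remaining lists straddle 0 or lie near it, and those with few expressed genes spread widely.

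The same contrast was set beside E16, where 7 embryos were oriented by the same 4 genes. The E16 libraries were uneven. In embryo 7 the green library (patUPD) had both Xist (412 counts) and Y-linked reads (825 counts), and the red library (matUPD) had 472924 gene counts. The red library (matUPD) of embryo 5 had 8803 genes detected. In a fit of red and green libraries of both ages, with 11333 genes tested, 1 gene differed between ages (0.00882% of those tested), the globin Hba-x, which was seen in few libraries. At E13 and E16 the log2 fold change of patUPD minus matUPD was 3.97 (SE 0.83) and 4.31 (SE 0.70) for Ndn, 7.02 (SE 2.01) and 6.95 (SE 1.87) for Mkrn3, and 4.07 (SE 1.74) and 5.53 (SE 1.53) for Peg3. For Cdkn1c it was -4.55 (SE 1.75) and -7.24 (SE 1.61), a difference between ages of -2.70 (SE 2.35, unadjusted p = 0.266). Ube3a was at -0.17 (SE 0.39) at E13 and -1.12 (SE 0.33) at E16, with an unadjusted p of 0.0794 for the difference. Of the 10 genes named above as the 5 higher and 5 lower, 3 had the same sign at both ages and 7 did not. Tmem120b (6.82 and 2.89), Mapk10 (3.23 and 0.99) and Phf7 (-7.14 and -1.70) had the same sign at E13 and E16, and among the others Paf1 went from 1.16 to -0.30 and Fancm from -4.88 to 1.90. Cdk1 and Pcna were within 0.2 of 0 at both ages.

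**Figure D5:**
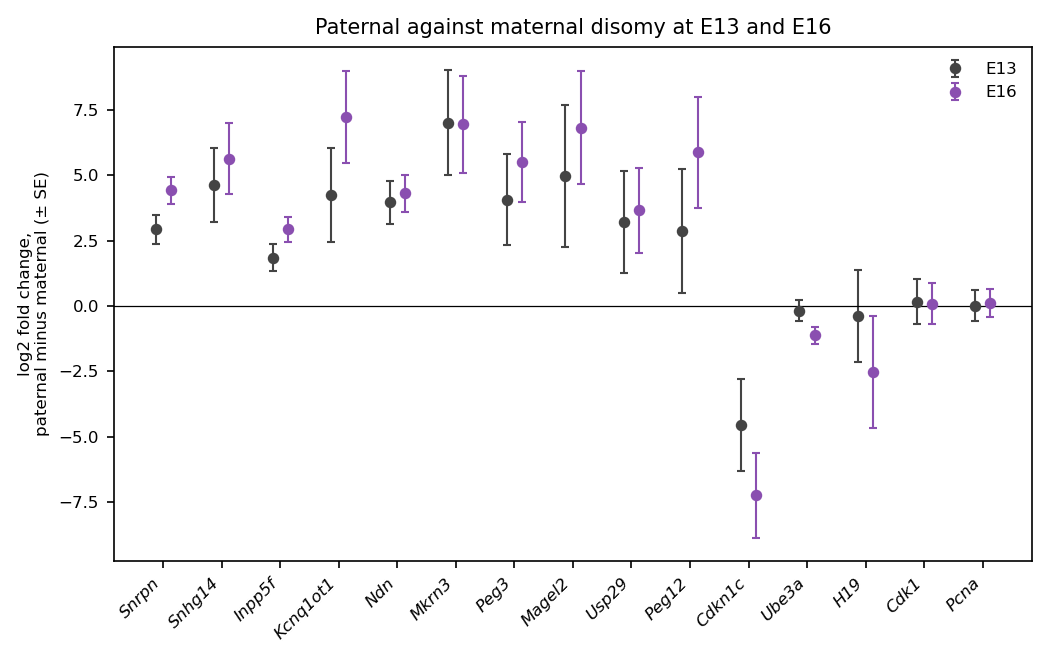
The y axis gives the log2 fold change of patUPD minus matUPD cells with bars of 1 SE at E13 (grey, 5 embryos) and E16 (purple, 7 embryos), from 1 fit of both ages, for the genes on the x axis. The first 4 genes set the direction at both ages. Ndn, Mkrn3, Peg3 and Cdkn1c lie on the same side of 0 at both ages, and Cdk1 and Pcna lie near 0.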

How the data were processed

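RNA from small pools of sorted cells was amplified with Smart-Seq2, without molecular identifiers or strand. Per the labels and the methods, the authors aligned reads with STAR 2.5.0c to GRCm38 with the Gencode M16 annotation and deposited whole-number read counts per gene, not normalised. SAMtools 1.8 and bedtools 2.26.0 are also named in the submitters' processing notes. The unstranded column was used, and symbols and coordinates are from Gencode M21 of the same build. The libraries used have 1217306 to 5205788 gene counts. PCR reads are not independent molecules, so floors cover counting error only.

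The 5 patUPD, 5 matUPD and 4 yellow libraries were fitted together with edgeR 4.0.16 in R 4.3.3 (TMM, quasi-likelihood test, embryo as a block, mean count of at least 10), and the threshold was a Benjamini-Hochberg adjusted p of 0.05. DESeq2 1.42.0 and limma 3.58.1 were alternatives. CPM are TMM-normalised, and within-embryo differences use log2 CPM with a prior count of 2. The fit was also run on simulated counts, with changes placed in genes of high count and low spread and no difference between embryos. That run gives no measure of its power for sparse genes. Gene counts of the colours were paired by embryo, since the labels say that single embryos were replicates. Deviations from the group means correlated by 0.0468 on average within embryos and -0.0112 between embryos, with 0 of 5 pairs over 0.1.

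Members and gene lists were chosen with earlier results of these data known. The genes named are all listed imprinted genes of chromosome 7, up to 5 genes per direction outside the lists with the smallest unadjusted p and 1 sign in 5 of 5 embryos, Cdk1, Pcna and the most abundant members of the other lists. Sequences are from RefSeq windows (GRCm38.p6), and all 3 genes shown were matched by symbol. Alternatives covered the test, normalisation, filter, block, colour and libraries fitted.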

Additional observations from a re-analysis of the deposited data

Results flagged for a closer look

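The patUPD library of embryo 4 had 50.5% uniquely aligned reads, the lowest of the 5 patUPD libraries, and its distance from the next was large for the range of the group. It was also the library with the fewest genes detected (9610). Among 17 groups of 5 values examined in this way it was the only one that stood out, and chance alone marks about 1 group in 20. Without embryo 4, 1 gene passed the threshold between patUPD and matUPD cells, Ndn.

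The embryonic globin Hba-x differed between E13 and E16 in the patUPD minus matUPD contrast, by -19.20 on the log2 scale (edgeR adjusted p = 0.0301). At E13 it was seen at 11879, 275 and 0.233 CPM in patUPD cells of embryos 1, 2 and 3 and at 0 counts in the other 7 libraries, so the fitted size depends on the prior count and is no measure of a fold. The part of blood RNA in it was not tested.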

How the results depend on the processing

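Between patUPD and matUPD cells the edgeR count of 0 genes became 211 with the DESeq2 Wald test, 2 with no filter on low counts (Ndn and Hba-x), 1 with red and green libraries only (Hba-x) and 0 to 1 with each embryo left out in turn (Ndn without embryo 4). Without the replicate block the count stayed at 0. For patUPD against yellow, 0 became 459 with DESeq2, 15 with limma-voom, 8 with no filter, 1 with all E13 libraries, 2 without the yellow library of embryo 2 and 0 to 1 with an embryo left out (1 without embryo 2). For matUPD against yellow, 0 became 362 with DESeq2, 29 with limma-voom, 17 with no filter, 6 without the yellow library of embryo 2 and 0 to 3 with an embryo left out (3 without embryo 2, 1 without embryo 4). The difference between ages went from 1 gene to 44 with DESeq2, to 0 without the replicate block and to 0 when at least 10 counts in 5 libraries were required. Cdkn1c passed with DESeq2 (-3.80), was -2.18 without the block and -5.28 with colour as a term, and ran from -5.31 (without embryo 1) to -2.84 (without embryo 6) with an embryo left out, never passing with edgeR. The cause of these changes was not tested. The log2 fold change turned sign for H19 with limma-voom (0.077), without the block (0.13) and on leaving out embryos (-0.45 to 0.39). It turned for Atp10a without the block (-0.75), with colour as a term (-1.68), with red and green only (-0.71), with all E13 libraries (-0.16), without the yellow library of embryo 2 (-0.96) and on leaving out embryos (-3.39 to 1.77). Without the block it turned for Nap1l4 (-0.021) and Tnfrsf23 (1.06). On leaving out embryos it ran from -0.31 to 0.071 for Ube3a, -0.020 to 1.46 for Nap1l4, -1.63 to 6.91 for Trpm5, -5.0 to 2.25 for Ano1, -4.75 to 2.52 for Tnfrsf23, -0.039 to 0.47 for Cdk1 and -0.089 to 0.18 for Pcna. Depth limits genes near 3 counts, which equal up to 2.4 CPM.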

Other observations

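In embryo 5, which was left out, all 4 genes of the rule were higher in red cells, by 0.67 log2 CPM for Snrpn and 8.33 for Snhg14. The study's sample list gives the opposite direction for that embryo. Its libraries had 5487 (red) and 3224 (green) genes detected, and the green library had 33.0% of its gene counts in mitochondrial genes.

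Among the listed genes that are not imprinted and had an unadjusted p under 0.05, picked out after their values were seen, Rb1, Ptprz1, Ttk and Lhx1 were lower in patUPD cells and Bid, Nes, Hba-x and Hbb-y were higher. The lists hold 406 genes, imprinted and untested ones included. Over all genes tested, 0.916% were higher and 1.34% lower at that p by edgeR. None of the genes just named passed the adjusted threshold in the edgeR fit of all 14 libraries. DESeq2 called Ttk, Hba-x and Hbb-y, and edgeR called Hba-x with no filter on low counts and with red and green libraries only.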
